A study of Mus musculus with 6 samples.

Results

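The reads described here were those annotated to the ERVK class of mouse long terminal repeat (LTR) retroelements in mRNA-seq libraries of Mvt1 cells, a mouse mammary carcinoma line of FVB/N background. The members were all reads whose annotation named ERVK, which gave 147 of 16023 annotation names, 240071 distinct read sequences of 47 nt and 233327 to 719244 reads per library. ERVK reads made up 2.58% to 3.03% of the 9046025 to 25692147 mapped reads of a library. They were grouped by name into IAP (16 names), ETn/MusD (5 names), mouse mammary tumor virus or MMTV (2 names), other names with the prefix RLTR (81 names) and all others (43 names).

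The cells were stained for CD24, a protein anchored at the cell surface, and sorted into a CD24- and a CD24+ group. RNA came from 3 plates of adherent cells per group in DMEM with fetal bovine serum, and no other treatment or genotype separated the groups. The line came from a tumor of a mouse with Myc and Vegf transgenes under the MMTV promoter, so that reads of the transgenes' LTR and of inherited MMTV copies cannot be told apart. All libraries came from 1 line and the sources describe no repeated sort, so SDs and p-values measure the spread between plates, which may be technical.

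Retroelements of the ERVK class are remnants of retroviruses fixed in the mouse genome, and many copies still carry LTRs that can start transcription. A complete copy has an internal part, with the former viral genes, between a left and a right LTR, while many copies are single LTRs. IAP (intracisternal A-particle) elements and the ETn (early transposon) elements with their coding relatives MusD still move in mouse germ cells. In most adult cells they are held silent by DNA methylation and by histone methylation that KRAB zinc finger proteins direct. MMTV is a mammary retrovirus with inherited copies, whose LTR is active in mammary epithelium.

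The labels call the cells mammary epithelial cancer cells. Cd24a, which encodes the sorted protein, had 8.97, 8.51 and 5.13 CPM (counts scaled to the mapped reads of each library) in CD24- replicates 1 to 3 and 51.5, 61.8 and 53.9 CPM in the CD24+ ones. Its log2 fold-change, here and throughout that of CD24+ over CD24- cells, was 2.88 (SE 0.17, adjusted p = 6.65e-07, edgeR). The summed level of 7 epithelial markers was 1357 to 1515 CPM in CD24- and 548 to 634 CPM in CD24+ libraries. The keratins Krt8, Krt18 and Krt19 were all called lower, while Krt5, Krt14, Cdh1 and Epcam had at most 6 reads each over all libraries. The sum of 6 mesenchymal markers, mostly Vim, was 2680.1 to 3281 CPM in CD24- and 3007 to 3672 CPM in CD24+ libraries, and 5 of the 6 were called higher. Vim itself did not pass the test (log2 fold-change 0.14, adjusted p = 0.361, edgeR). Of the 5, Col1a1 and Col1a2 averaged at most 2.32 CPM in either group, and Pdgfra overlapped between the groups. Over all annotations 20.8% were called higher and 23.6% lower. Leukocyte markers summed to 31.9 to 56.5 CPM in CD24- and 5.02 to 6.63 CPM in CD24+ libraries, nearly all of it Cd68, while Ptprc, the defining one, had 2 reads. Endothelial markers summed to at most 1.90 CPM. Ribosomal RNA reads were 0.819% to 3.51% of mapped reads, highest in CD24+ replicate 2. CD24+ replicate 1, the shallowest library, stood apart in other measures, with 3.70% mitochondrial reads against 1.95% to 2.41%, 20.2% unannotated reads against 16.9% to 18.0% and 5.93% repeat reads against 6.68% to 7.83%. It was also the lowest of the 6 libraries in the total of all ERVK reads and of each ERVK group. Without it ETn/MusD and MMTV reads were still called lower (log2 fold-changes -1.58 and -0.45, adjusted p = 5.89e-05 and 0.00715, edgeR). The part of the marker differences in the ERVK results was not tested.

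The sequences that follow carry the main contrasts. Each is the most abundant read of its annotation or locus that matched no coding or untranslated part of an mRNA, printed 5′ to 3′ as sequenced, with its deposited mm9 place. The IAPEz-int read on chromosome 11 and the MMETn-int read stand for the most abundant families, the 3 reads from chromosome 1 for a stretch read mainly in CD24- cells, and the last 3 for loci read mainly in CD24+ cells.
IAPEz-int, chr11:90695567-90695613, minus strand: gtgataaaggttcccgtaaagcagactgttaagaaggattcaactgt
MMETn-int, chr13:114512004-114512050, minus strand: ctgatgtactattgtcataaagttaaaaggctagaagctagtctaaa
RLTR13C2, chr1:7041120-7041166, minus strand: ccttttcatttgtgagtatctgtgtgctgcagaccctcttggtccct
RLTR13D2, chr1:7045703-7045749, minus strand: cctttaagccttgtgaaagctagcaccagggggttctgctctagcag
ETnERV3-int, chr1:7044768-7044814, minus strand: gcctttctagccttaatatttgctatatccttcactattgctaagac
IAP-d-int, chr11:61205509-61205555, plus strand: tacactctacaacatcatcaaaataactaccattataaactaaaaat
RLTR10D, chr11:61211084-61211130, minus strand: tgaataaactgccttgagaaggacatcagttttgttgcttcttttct
IAPEz-int, chr16:32197036-32197082, minus strand: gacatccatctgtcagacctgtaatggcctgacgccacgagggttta

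The IAPEz-int read on chromosome 11 had 17.4 ± 0.600 CPM in CD24- and 17.5 ± 1.47 CPM in CD24+ libraries (SD, n = 3 each). The MMETn-int read had 3.57 ± 0.491 CPM in CD24- and 0.979 ± 0.688 CPM in CD24+ libraries. The RLTR13D2 read had 0.373 ± 0.325 CPM in CD24- libraries and was seen in 0 CD24+ libraries, with 14 reads in all. At this depth single reads other than the first are thinly counted, so the tests below use sums over annotations and loci.

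ETn/MusD reads fell in CD24+ cells, while the far more abundant IAP reads showed no called change. The ETn/MusD total was 1535, 1479 and 1760 CPM in CD24- and 387, 596 and 466 CPM in CD24+ libraries, so that the lowest CD24- library stood far above the highest CD24+ one. The mean was 3.29-fold lower in CD24+ cells (log2 fold-change -1.72, SE 0.15, adjusted p = 8.13e-06, 95% interval -2.05 to -1.39, edgeR). An exact permutation test over the 6 libraries, two-sided, gave p = 0.1, the smallest that 3 against 3 allows. ETn/MusD made up 5.43% of ERVK reads in CD24- and 1.80% in CD24+ cells. In the fit over groups and all other annotations 44.6% of features were called, 23.6% as lower.

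The IAP total was 24405, 24129 and 25257 CPM in CD24- and 23122, 23488 and 24743 CPM in CD24+ libraries, with overlapping groups (log2 fold-change -0.05, SE 0.09, adjusted p = 0.695, 95% interval -0.26 to 0.16). IAP reads were 2.46% of all mapped reads in CD24- and 2.38% in CD24+ cells, and 84.0% and 88.4% of ERVK reads. All ERVK reads together had 29297 ± 896 CPM in CD24- and 26895 ± 1101 CPM in CD24+ libraries and did not pass the test (log2 fold-change -0.12, SE 0.10, adjusted p = 0.317). The CD24- and CD24+ libraries did not overlap in this total, nor in the other RLTR and remaining ERVK totals below (exact permutation p = 0.1 each).

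MMTV reads were few and lower in CD24+ cells, at 42.7, 43.2 and 41.0 CPM in CD24- and 21.4, 28.7 and 33.4 CPM in CD24+ libraries, with no overlap (log2 fold-change -0.58, SE 0.14, adjusted p = 0.00634). The MMTV LTR, RLTR3_Mm, had 20.7 ± 0.786 CPM in CD24- and 10.9 ± 3.19 CPM in CD24+ libraries and was called (log2 fold-change -0.88, SE 0.18, adjusted p = 0.00253). The internal part, MMTV-int, had 21.5 ± 0.453 CPM in CD24- and 17 ± 2.89 CPM in CD24+ libraries and did not pass the test (log2 fold-change -0.32, SE 0.13, adjusted p = 0.0632). Counted once per distinct sequence, MMTV did not pass the test (log2 fold-change -0.30, adjusted p = 0.0973). MMTV-int had 670 distinct sequences for 1895 reads and RLTR3_Mm 311 for 1515. Repeated reads of a sequence add nothing to this count, which narrows differences, so failing it does not decide whether MMTV reads fell. Whether LTR and internal part differed in response was not tested.

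Other RLTR names summed to 1872 ± 67.6 CPM in CD24- and 1619.8 ± 174 CPM in CD24+ libraries and did not pass the test (log2 fold-change -0.21, SE 0.10, adjusted p = 0.109). Their LTRs were called lower (1072 ± 52.6 CPM in CD24- and 867 ± 89.7 CPM in CD24+ libraries, log2 fold-change -0.31, SE 0.10, adjusted p = 0.0252), but not without a stretch of chromosome 1 described below (log2 fold-change -0.21, adjusted p = 0.0996). Their internal parts had 799 ± 15.3 CPM in CD24- and 753 ± 85.2 CPM in CD24+ libraries. The remaining ERVK names summed to 1194 ± 96.1 CPM in CD24- and 979 ± 117 CPM in CD24+ libraries (log2 fold-change -0.29, SE 0.11, adjusted p = 0.0511), of which the internal parts were called lower (log2 fold-change -0.42, SE 0.12, adjusted p = 0.0184).

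**Figure D1:**
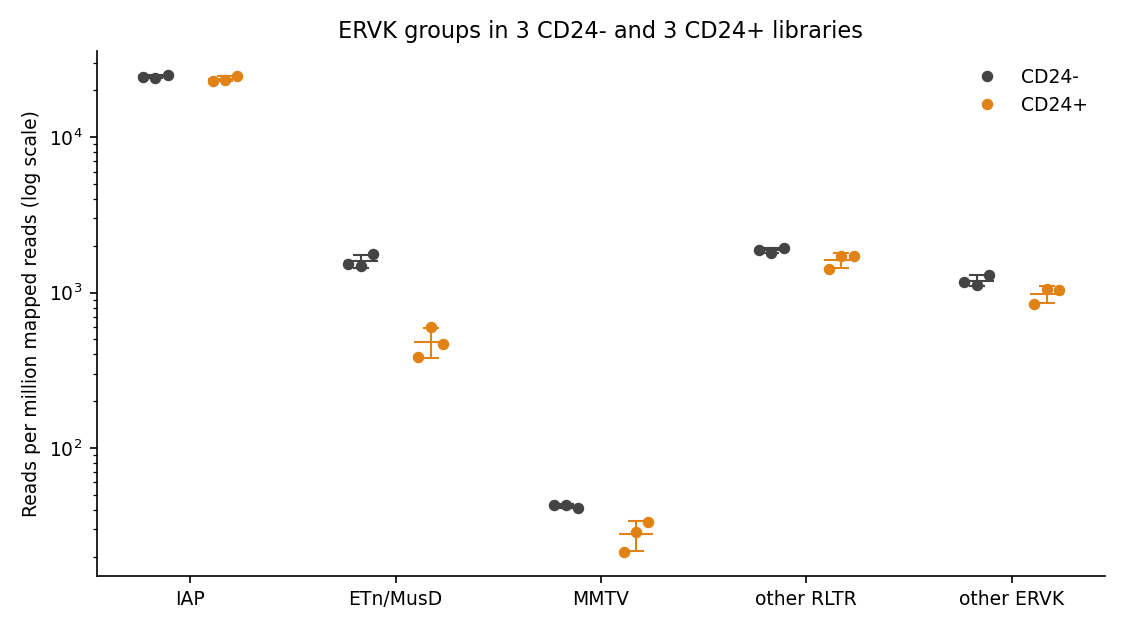
CPM (log scale) of the ERVK groups in each of 3 CD24- and 3 CD24+ libraries; points are libraries and bars the mean ± SD. The ETn/MusD libraries of the sorted groups lie apart at 1591 ± 149 and 483 ± 106 CPM, while the IAP libraries overlap.

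Of 147 ERVK annotations 137 passed the filter on low counts, of which 8 rose and 39 fell in CD24+ cells at an adjusted p below 0.05. Without CD24+ replicate 1 the count of lower names was 25, without CD24- replicate 1 it was 23, and without CD24+ replicate 3 that of higher names was 5. With each distinct sequence counted once, 24 names were called, 16 of them lower. Over all 11868 annotations tested 44.3% were called, 20.8% higher and 23.6% lower. The median log2 fold-change was -0.26 over ERVK, -0.20 over the 482 other repeats and -0.03 over all annotations. Within ERVK, 5 of 5 ETn/MusD, 3 of 14 IAP, 1 of 2 MMTV, 21 of 75 other RLTR and 9 of 41 remaining names were lower, and the counts of higher names were 0, 1, 0, 4 and 3. The libraries of the sorted groups did not overlap for 75 of the 137, beside 56.3% of all annotations.

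The most abundant annotation was IAPEz-int, the internal part of an abundant IAP subfamily, at 22870.4 ± 594 CPM in CD24- and 21920.1 ± 783 CPM in CD24+ libraries (log2 fold-change -0.06, SE 0.10, adjusted p = 0.642). Its LTRs IAPLTR1_Mm, at 1279.8 and 1365 CPM, and IAPLTR1a_Mm, at 209.7 and 209 CPM, did not pass the test either. Of the other abundant internal parts, MMERVK10C-int had 142, 147 and 238 CPM in CD24- and 69.0, 120.1 and 78.3 CPM in CD24+ libraries and was called lower (log2 fold-change -0.97, SE 0.23, adjusted p = 0.00657), with CD24- replicate 3 far above the rest. MurERV4-int was also lower (log2 fold-change -0.60, SE 0.10, adjusted p = 0.000712). RLTR19-int, RMER19B and RLTR18 did not pass, with log2 fold-changes of -0.01, -0.01 and -0.20.

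Every name of the ETn/MusD group was called lower, and none overlapped between the groups. MMETn-int, the internal part of ETn, had 1158, 1117 and 1342 CPM in CD24- and 257, 417 and 310.5 CPM in CD24+ libraries, a 3.67-fold lower mean (log2 fold-change -1.87, SE 0.16, adjusted p = 7.81e-06). ETnERV2-int, a MusD-like internal part, fell by less, from 203, 204 and 233 CPM to 85.9, 114 and 100.3 CPM (log2 fold-change -1.08, SE 0.11, adjusted p = 2.67e-05). ETnERV-int had 48.3 ± 4.13 CPM in CD24- and 15.8 ± 3.55 CPM in CD24+ libraries (log2 fold-change -1.58, SE 0.15, adjusted p = 1.28e-05). CD24+ replicate 2 was the highest CD24+ library for these 3 names and for RLTRETN_Mm, the LTR of the family, which had 101 ± 9.97 CPM in CD24- and 33.6 ± 6.80 CPM in CD24+ libraries (log2 fold-change -1.57, SE 0.14, adjusted p = 8.62e-06). ETnERV3-int had 24.0, 22.7 and 21.9 CPM in CD24- and 4.53, 5.06 and 6.15 CPM in CD24+ libraries (log2 fold-change -2.09, SE 0.14, adjusted p = 1.13e-06).

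IAP internal parts other than IAPEz-int went different ways. IAP-d-int had 15.1, 12.7 and 10.7 CPM in CD24- and 88.1, 74.6 and 92.8 CPM in CD24+ libraries, which was 6.64-fold higher in CD24+ cells (log2 fold-change 2.73, SE 0.14, adjusted p = 2.24e-07). IAPLTR3-int fell, with 24.4 ± 2.98 CPM in CD24- and 17.4 ± 2.88 CPM in CD24+ libraries (log2 fold-change -0.47, SE 0.14, adjusted p = 0.0209). IAPEY3-int (14.6 and 16.1 CPM) and IAPEy-int (3.84 and 3.15 CPM) did not pass the test.

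The other large increases were of RLTR10D, RLTR9C, RLTR19A and RLTR19C, all LTRs. RLTR10D had 4.49 ± 0.293 CPM in CD24- and 18.7 ± 1.17 CPM in CD24+ libraries (log2 fold-change 2.06, SE 0.13, adjusted p = 9.80e-07), and RLTR9C, RLTR19A and RLTR19C had log2 fold-changes of 0.90, 0.84 and 0.81. Besides MMETn-int and ETnERV3-int, the largest decreases were of LTRs. RLTR13C2 had 27.7 ± 1.54 CPM in CD24- and 4.53 ± 1.34 CPM in CD24+ libraries (log2 fold-change -2.54, SE 0.17, adjusted p = 1.46e-06), RLTR13D2 had 22.6 ± 0.968 CPM in CD24- and 4.67 ± 0.361 CPM in CD24+ libraries (log2 fold-change -2.29, SE 0.12, adjusted p = 3.11e-07), and RLTR9D had 21.1 ± 1.15 CPM in CD24- and 6.70 ± 0.950 CPM in CD24+ libraries (log2 fold-change -1.63, SE 0.13, adjusted p = 4.98e-06). These were the 5 largest changes in each direction among called annotations of at least 1 CPM whose groups did not overlap.

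**Figure D2:**
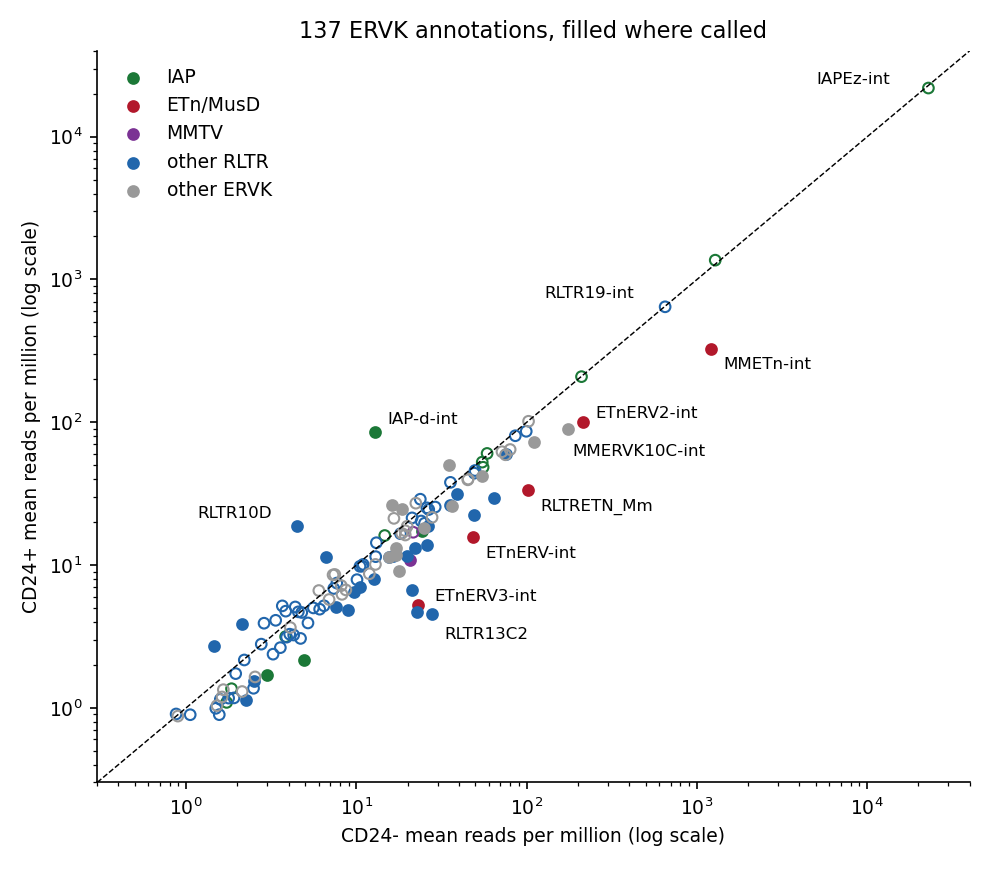
Mean CPM of 137 ERVK annotations in CD24- (x axis) and CD24+ (y axis) libraries, both on log scales, n = 3 each; colour marks the group, filled points were called at an adjusted p below 0.05, and the diagonal marks equal levels. The 5 ETn/MusD names lie below the diagonal, IAPEz-int lies near it at 22870.4 and 21920.1 CPM, and IAP-d-int and RLTR10D lie above it.

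The reads were next grouped by place, joining ERVK reads whose ends lay at most 1000 bases apart into a locus. This gave 23522 ERVK loci among 378088 of all repeat families, of which 1999 ERVK loci and 8918 in all passed the filter. Of the ERVK loci 158 were called higher and 498 lower, beside 29.6% of all repeat loci called, 9.17% higher and 20.4% lower. The median log2 fold-change was -0.15 over ERVK loci and -0.13 over all repeat loci. A scaling by TMM factors shifted the median of all repeat loci by 0.15, and 247 ERVK loci were then higher and 387 lower. DESeq2 gave 312 lower ones, and with each distinct sequence counted once 80 were higher and 204 lower.

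How firmly a read sits at its locus differed between families, because each sequence was deposited with a single place. Where a sequence occurs once in the genome, a read and its reverse complement are placed together. A shared place does not by itself show that a sequence occurs once. Of 38574 IAPEz-int sequences whose reverse complement was also sequenced, 12.9% had it at the same place, and for ETn/MusD the share was 15.9% of 8467. For LTRs with the prefix RMER it was 98.4% of 4753. Of distinct IAPEz-int sequences 15.7% were placed on the plus strand, beside at least 49.9% of sequences annotated to genes, and chromosomes 1, 10, 11 and 12 received 65.6% of IAPEz-int reads. A locus total of IAPEz-int or ETn/MusD is thus the number of reads placed there, which copies elsewhere may share, and loci of these families are not independent of each other.

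Most reads of ETn/MusD were placed at loci called lower, but with this placing the loci are not separate measurements. Of 223 tested 209 were lower and 4 higher, beside 20.4% and 9.17% of all repeat loci. The median log2 fold-change of the 223 was -1.82, with a range of -2.23 to -1.24 from the 10th to the 90th percentile. MMETn-int reads lay at 604 loci, and the 24 largest of these were enough for most of them. The leading one, chr13:114510698-114514059, had 116, 108 and 134 CPM in CD24- and 28.1, 44.6 and 32.6 CPM in CD24+ libraries (log2 fold-change -1.75, SE 0.14, adjusted p = 6.14e-09). Without it the rest of MMETn-int had 1087 and 294 CPM.

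At 9 tested ETn/MusD loci at least 10 sequences could be checked and at least 90% of them were placed with their reverse complement, limits set after the values were seen. Of these 9 loci 6 were lower, 2 higher and 1 not called (median log2 fold-change -1.54), and the 142 loci with a lower share were all called lower (median -1.83). Over all repeat loci 20.4% were called lower and 9.17% higher. The 9 loci summed to 57.6 CPM in CD24- and 39.8 CPM in CD24+ cells, and the 142 to 1265 and 344 CPM. One of the well-placed loci that rose was ETnERV2-int. At chr7:134601908-134610712 it had 6.39, 7.04 and 9.03 CPM in CD24- and 21, 19.4 and 19.0 CPM in CD24+ libraries (log2 fold-change 1.40, SE 0.15, adjusted p = 3.19e-07). All 118 of its sequences with a sequenced reverse complement had both at the same place, and 20.2% of its reads matched the noncoding transcript B130055M24Rik of the GENCODE M21 annotation. Prr14, which lies 4.4 kb away and encodes a protein that ties heterochromatin to the nuclear lamina, had 33.5 and 37.4 CPM and did not pass the test. This locus was chosen after its values were seen.

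Most of the 1396 tested IAP loci were not called, while 47 of them were called at least 4-fold higher and 7 at least 4-fold lower. Over all repeat loci those shares were 1.95% and 3.94% of 8918. How many of the 47 were well placed is not given. Called at any size, 9.17% of all repeat loci were higher and 20.4% lower. The median log2 fold-change of the 1396 tested IAP loci was -0.09, with 125 higher (8.95%), 203 lower (14.5%) and 1068 not called. By the limits used above for ETn/MusD, 50 of these loci were well placed, of which 13 were higher, 14 lower and 23 not called, and of the 898 less firmly placed ones 81 were higher, 140 lower and 677 not called, while the rest had fewer than 10 sequences that could be checked. The 5 ERVK loci with the most reads were all IAPEz-int and did not pass the test. The first, chr1:104928505-104934991, had 367 ± 10.6 CPM in CD24- and 338 ± 18.4 CPM in CD24+ libraries, and the others, at chr10:24406434-24409701, chr11:84874946-84880386, chr1:150121301-150124666 and chr11:90693782-90695913, had 248 to 270.4 CPM in CD24- and 240.5 to 269 CPM in CD24+ cells. Usp32, a deubiquitinase gene with reads 2.2 kb to either side of chr11:84874946-84880386, was called lower (log2 fold-change -0.39, SE 0.09, adjusted p = 0.00503).

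**Figure D3:**
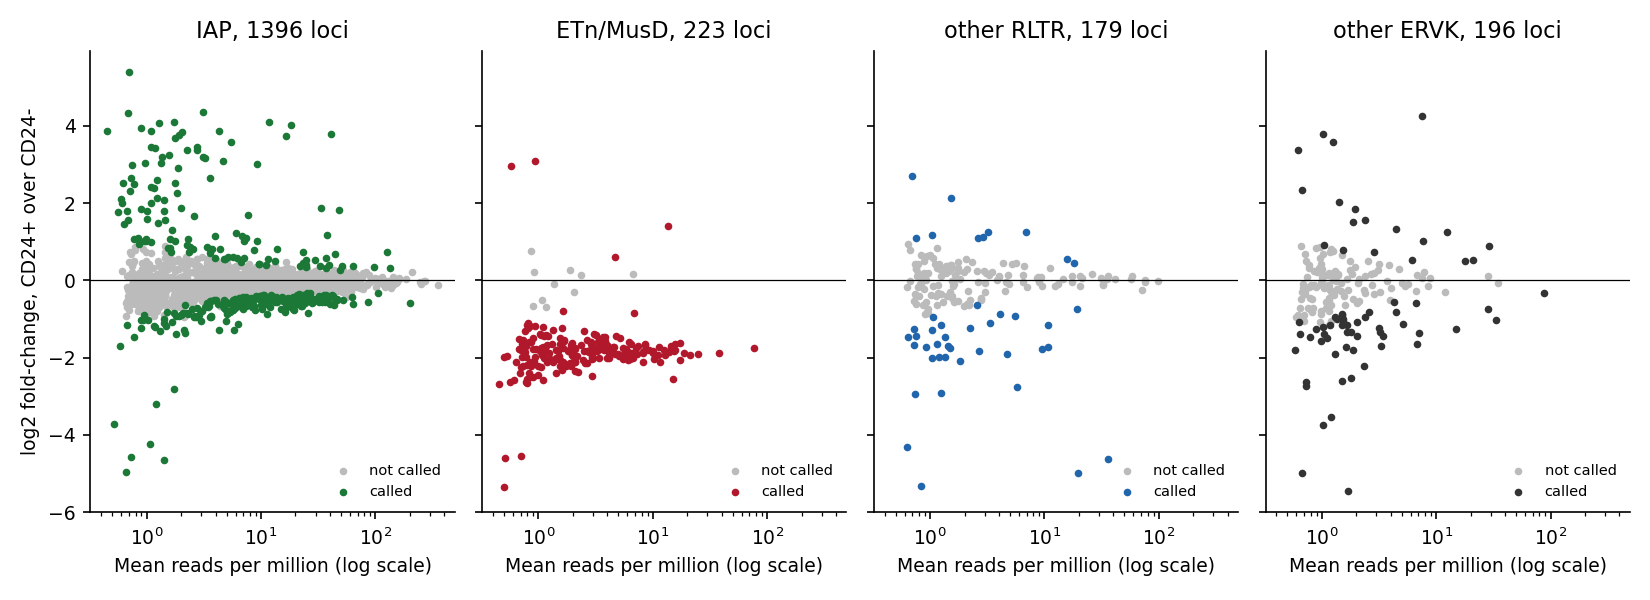
Log2 fold-change (CD24+ over CD24-) against mean CPM (log scale) of tested ERVK loci in 4 groups, with called loci marked. Of 223 ETn/MusD loci 209 were called lower around a median of -1.82, beside 20.4% of all repeat loci called lower. The 1396 IAP loci have a median of -0.09.

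IAP-d-int and RLTR10D rose mainly at 1 place. At chr11:61204646-61211176 they had 6.94, 5.49 and 4.06 CPM in CD24- and 79.7, 67.5 and 83.2 CPM in CD24+ libraries, 14.0-fold higher in CD24+ cells (log2 fold-change 3.8, SE 0.16, adjusted p = 3.56e-13). The locus holds both reads of these annotations printed above, and 96.2% of its 499 sequences with a sequenced reverse complement had both at the same place. It held 30.0% of IAP-d-int reads in CD24- and 74.3% in CD24+ cells. Without it, IAP-d-int was still called higher, at a log2 fold-change of 1.29, and RLTR10D at 0.88. Slc47a1, which encodes an exporter of organic cations and lies 13.2 kb to the left, rose as well (log2 fold-change 3.47, adjusted p = 6.18e-07). It lies beyond the 10000 bases set for neighbours and was named after its value was seen, and the nearest gene to the right, the kinase gene Mapk7 at 91.2 kb, was called lower (log2 fold-change -0.79, adjusted p = 5.53e-05).

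The 5 largest increases among loci of at least 1 CPM had log2 fold-changes of 4.08 to 4.37, and 4 of them were IAP. At chr8:85272313-85279101, where IAP-d-int led with 64.7% of reads, CPM was 0.0780, 0.211 and 0.580 in CD24- and 6.08, 5.43 and 6.46 in CD24+ libraries (log2 fold-change 4.37, SE 0.34, adjusted p = 4.98e-09). All 26 of its sequences that could be checked were placed with their reverse complement. Zfp330, a zinc finger protein gene 8.4 kb to the right, had 34.6 and 33.7 CPM and did not pass the test. IAP-d-int at chr11:58504016-58509463 had 0.156, 0.211 and 0.166 CPM in CD24- and 4.09, 2.65 and 3.15 CPM in CD24+ libraries (log2 fold-change 4.09, SE 0.38, adjusted p = 6.37e-08), and all 16 such sequences were placed together. Both loci were thinly read in CD24- cells. The one on chromosome 8 rests on 11 CD24- and 354 CD24+ reads, and the one on chromosome 11 on 7 and 183.

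The remaining 2 IAP loci were IAPEz-int and less firmly placed. At chr16:32196759-32197118, which holds the last read printed above, CPM was 1.33, 1.13 and 1.41 in CD24- and 26.8, 17.1 and 23.1 in CD24+ libraries (log2 fold-change 4.10, SE 0.21, adjusted p = 7.59e-12). At chr13:50653860-50654144 it was 0.0780, 0.141 and 0.166 and 3.43, 1.92 and 2.02 (log2 fold-change 4.08, SE 0.47, adjusted p = 1.03e-06), from 5 and 130 reads. Of the 111 and 12 sequences that could be checked at these loci, 0 were placed with their reverse complement.

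Reads of IAP elements that differ by 1 or 2 bases are set side by side here as values, with no test of single reads. The pairs that follow set the most abundant read of a called IAP locus, whose direction that choice fixes in part, before the most similar other ERVK read of at least 1 CPM, with the differing bases in capitals. Positions count from 1 at the 5′ end, and a substitution gives the base of the second read first.
IAPEz-int, chr10:111494664-111494710, minus strand: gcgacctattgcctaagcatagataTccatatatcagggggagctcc
IAPEz-int, chr1:150125872-150125918, minus strand: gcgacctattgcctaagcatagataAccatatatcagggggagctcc
IAPEz-int, chr8:47011339-47011385, minus strand: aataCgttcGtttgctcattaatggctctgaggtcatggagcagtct
IAPEz-int, chr1:168285602-168285648, minus strand: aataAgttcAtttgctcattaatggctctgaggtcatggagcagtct
IAPLTR1_Mm, chr16:70542942-70542988, plus strand: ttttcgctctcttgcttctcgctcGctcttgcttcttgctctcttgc
IAPLTR1_Mm, chr11:90690925-90690971, minus strand: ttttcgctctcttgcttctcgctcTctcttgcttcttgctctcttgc

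The first pair differs by A26T. Its read on chromosome 10 had 0.234, 0.352 and 0.0828 CPM in CD24- and 2.65, 2.24 and 3.11 CPM in CD24+ libraries, while its read on chromosome 1 had 8.66, 8.09 and 8.36 CPM and 3.43, 6.28 and 6.03 CPM. The former was higher and the latter lower in every CD24+ library than in any CD24- one. The whole locus, chr10:111493828-111495484, had 2.57, 1.97 and 1.66 CPM in CD24- and 42.2, 24.8 and 36.1 CPM in CD24+ libraries (log2 fold-change 4.03, SE 0.21, adjusted p = 9.35e-12), and 99% of its 103 sequences that could be checked were placed with their reverse complement.

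The second pair differs by A5C and A10G. Its read on chromosome 8 had 0.0780, 0 and 0 CPM in CD24- and 0.442, 0.489 and 0.623 CPM in CD24+ libraries, and its near match had 1.79, 1.62 and 2.07 CPM and 0.884, 1.22 and 1.36 CPM. Both IAPEz-int loci there, chr8:47011330-47011422 and chr8:47013780-47013866, rose (log2 fold-changes 3.78 and 3.85, adjusted p = 9.98e-08 and 2.17e-08). They were thinly read in CD24- cells, at 0.262 and 0.253 CPM, beside 3.60 and 3.81 CPM in CD24+ cells. The first rests on 10 CD24- and 214 CD24+ reads, and the second on 10 and 225. Ccdc110, a coiled-coil gene 8.6 and 6.1 kb from these 2 loci, rose too, from 0.180 to 2.39 CPM (log2 fold-change 3.76, SE 0.46, adjusted p = 0.0001). The loci of the first and second pairs were chosen after their values were seen.

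The third pair differs by T25G. Its read on chromosome 16 had 15.7, 8.09 and 13.7 CPM in CD24- and 21.3, 22.8 and 23.1 CPM in CD24+ libraries, and the other read had 2.73, 1.34 and 2.65 CPM and 1.44, 1.79 and 1.83 CPM. The latter overlapped between the groups. The locus of the former, chr16:70542704-70543886, the leading one of IAPLTR1_Mm, was called higher (log2 fold-change 0.74, SE 0.10, adjusted p = 1.14e-05). Counted once per distinct sequence it had a log2 fold-change of -0.20 and was not called. With 139 distinct sequences for 3680 CD24- and 9231 CD24+ reads, that count can hardly follow read level, so nothing is read from it.

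The largest decreases of RLTR names came from 1 stretch of chromosome 1. Of the 5 largest decreases among loci, 3 lay in the 60 kb of chr1:7000001-7060000, where reads were dense from 16 to 48 kb. The locus chr1:7043953-7046218, with RLTR45-int, RLTR13D2, RLTR9D and ETnERV3-int reads, had 72.5, 66.3 and 67.2 CPM in CD24- and 2.76, 2.61 and 3 CPM in CD24+ libraries (log2 fold-change -4.61, SE 0.14, adjusted p = 4.79e-15). The locus chr1:7040260-7042061, with RLTR13C2 and RLTR18B reads, had 37.1, 38.1 and 39.0 CPM in CD24- and 0.884, 1.26 and 1.28 CPM in CD24+ libraries (log2 fold-change -4.97, SE 0.16, adjusted p = 1.13e-14). IAPLTR2b at chr1:7016261-7016358 had 2.05 and 0.0797 CPM (log2 fold-change -4.23, SE 0.45, adjusted p = 4.14e-07). Of the sequences of the first and second locus that could be checked, 99.6% of 484 and all 230 were placed with their reverse complement.

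Reads of every kind in the stretch were lower in CD24+ cells. ERVK reads in it had 111 ± 2.24 CPM in CD24- and 4.07 ± 0.397 CPM in CD24+ libraries, 27.3-fold lower in CD24+ cells. Reads of other repeats had 151 ± 6.40 CPM in CD24- and 5.96 ± 0.904 CPM in CD24+ libraries (25.4-fold), and reads with no annotation had 86.0 ± 2.09 CPM in CD24- and 3.65 ± 0.233 CPM in CD24+ libraries (23.5-fold). All 6 libraries followed their group, with totals of 351, 338 and 356 CPM and of 12.8, 13 and 15.3 CPM. The nearest genes with at least 50 reads were Pcmtd1, 32.9 kb to the right of the locus with RLTR45-int and called higher (log2 fold-change 0.57, adjusted p = 0.00192), and Rb1cc1, 750.6 kb to the left of IAPLTR2b. The stretch was chosen after its values were seen, and its totals are given with no test.

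**Figure D4:**
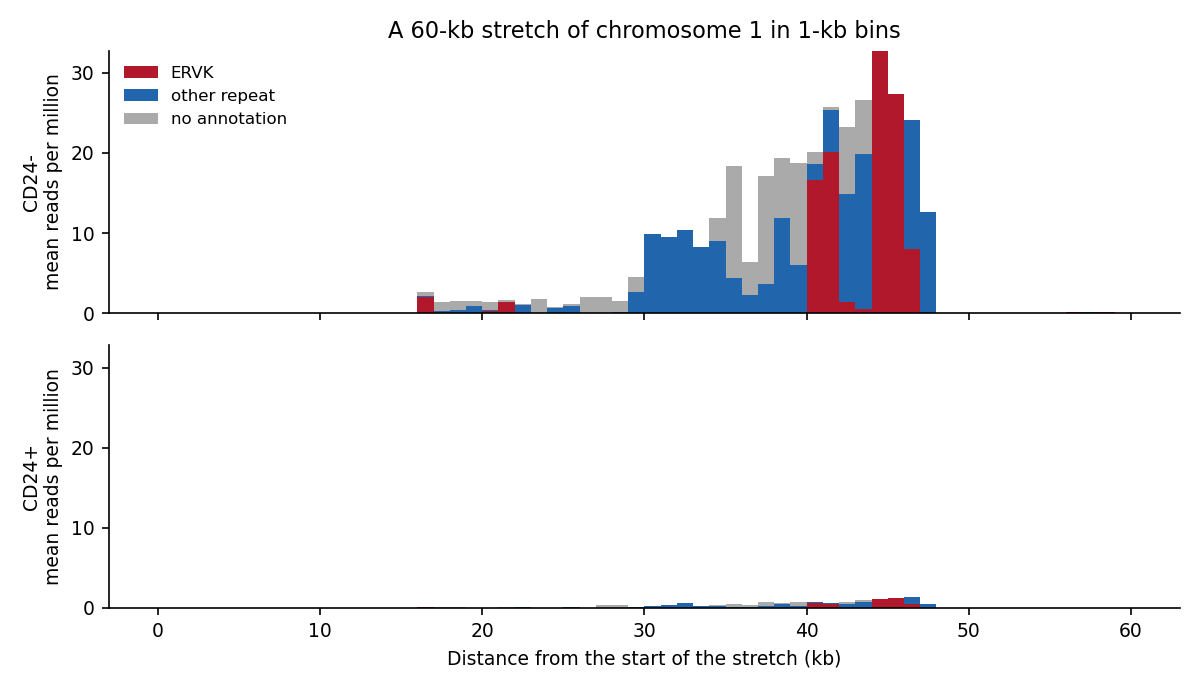
Mean CPM in 1-kb bins along 60 kb of chromosome 1 in CD24- and CD24+ libraries, n = 3 each, by distance from the start of the stretch in kb; stacked colours mark ERVK, other repeats and reads with no annotation. Reads fill the bins from 16 to 48 kb in CD24- cells, 348 CPM in all, and are sparse in CD24+ cells, 13.7 CPM in all.

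Without the reads of this stretch, RLTR13D2 and RLTR45-int had log2 fold-changes of 0.11 and 0.01, and RLTR13C2 one of -0.51, none of them called. RLTR9D stayed lower (-0.57, adjusted p = 0.0117), as did ETnERV3-int (-1.50, adjusted p = 2.81e-05) and the ETn/MusD total (-1.71). The increases of RLTR19C and RMER17B were likewise not called without their leading loci (log2 fold-changes -0.36 and -0.32), while RLTR9C was (1.01). With every annotation stripped of its leading locus, 30 ERVK names were called, 24 of them lower.

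**Figure D5:**
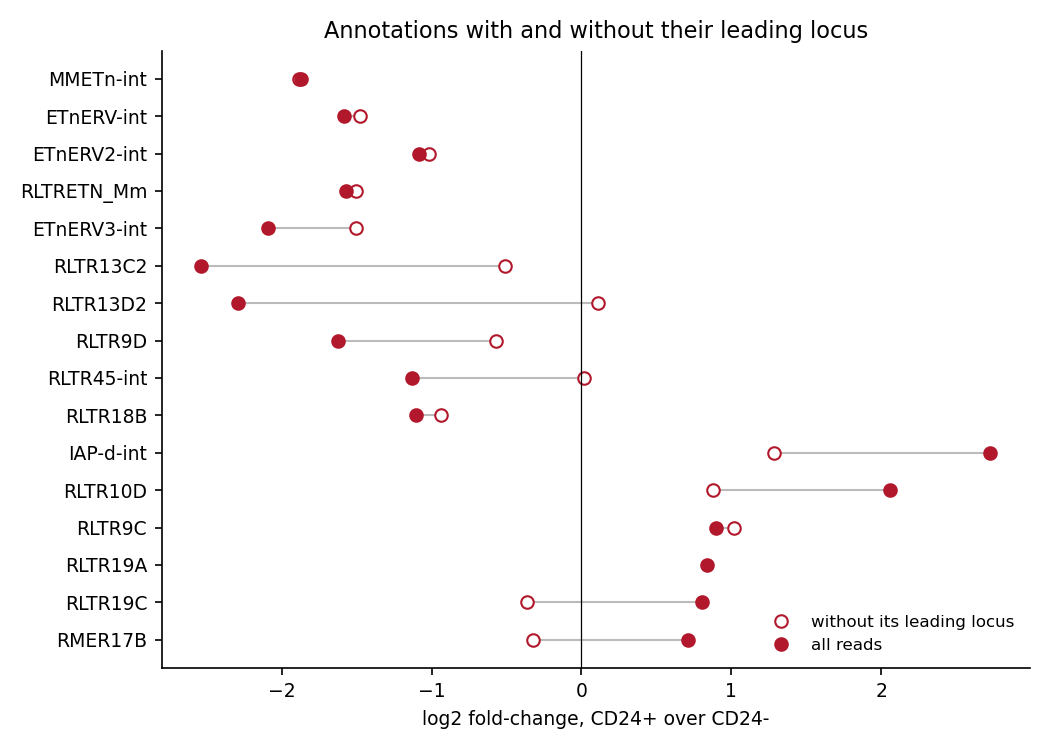
Log2 fold-change (CD24+ over CD24-) of ERVK annotations with all reads (filled) and without the locus that held more of their reads than any other (open); RLTR19A has no open point because too few reads were left. MMETn-int keeps its value at -1.87 and -1.89, while RLTR13D2 and RLTR45-int move from -2.29 and -1.13 to 0.11 and 0.01.

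The other 2 of the 5 largest decreases were thinly read. MMERVK10C-int at chr1:175715819-175717389, 18.7 kb from the interferon-inducible gene Ifi204, had 3.20, 2.53 and 4.22 CPM in CD24- and 0, 0.0816 and 0.0778 CPM in CD24+ libraries (log2 fold-change -5.46, SE 0.45, adjusted p = 9.90e-09), which rests on 128 and 4 reads. Ifi204 did not pass the test (log2 fold-change -0.20). IAPLTR1_Mm at chr11:19466230-19466282 had 2.57, 1.90 and 3.81 CPM in CD24- and 0.111, 0 and 0.195 CPM in CD24+ libraries (log2 fold-change -4.65, SE 0.51, adjusted p = 5.60e-07), and 96.8% of its reads matched the 3′ UTR of Gm11127. None of the 5 checkable sequences of this locus was placed with its reverse complement.

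Many ERVK reads also matched annotated transcripts, so that an ERVK name need not mean a transcript of the element alone. The match was by sequence alone and on either strand. For a family of many copies, such as IAPEz-int, it does not show that a read came from the matched gene. Of all ERVK reads 76.0% matched a GENCODE M21 transcript exactly. For IAPEz-int the share was 79.8%, and 50.5% matched transcripts of Noct, which encodes nocturnin. Of RLTR19-int reads, the most abundant outside the IAP and ETn/MusD groups, 71.5% matched Hnrnpa3, which encodes an RNA-binding protein, and 46.7% matched coding sequence. Its leading locus, chr16:94463474-94464140, had 99.3 and 98.5 CPM. Without the reads that matched a transcript, other RLTR names were called lower (log2 fold-change -0.61, adjusted p = 0.00563), and ETn/MusD stayed lower (-1.70).

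At some loci the ERVK reads lay in the 3′ UTR of a gene. RMER17B at chr3:19892691-19892915, the second largest increase among loci, had 0.858, 0.915 and 0.414 CPM in CD24- and 13.8, 10.7 and 18.4 CPM in CD24+ libraries (log2 fold-change 4.26, SE 0.27, adjusted p = 2.02e-10). Of its reads 99.8% matched the 3′ UTR of Cp, which encodes the copper-carrying ferroxidase ceruloplasmin and itself rose from 34.1 to 395 CPM (log2 fold-change 3.53, SE 0.22, adjusted p = 9.47e-07). The neighbour Hps3, a gene of lysosome-related organelles, had a log2 fold-change of 0.85 (SE 0.13).

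Other loci of this kind were chosen after their values were seen. RLTR18B at chr7:150794154-150794975, in the 3′ UTR of the TNF receptor family gene Tnfrsf26, went from 16.6 to 5.09 CPM (log2 fold-change -1.72, SE 0.15), and the gene's own reads gave -1.71 (SE 0.13). Cars, a tRNA synthetase gene 8.2 kb to the left, was called the other way (log2 fold-change 1.05, SE 0.18). RMER12B at chr7:113043999-113045039, whose reads matched the 3′ UTR of Gm4070, went from 0.134 to 1.93 CPM (3.79, SE 0.64), and the interferon-inducible GTPase gene Gvin1 beside it gave 4.03 (SE 0.54). That locus rests on 5 CD24- and 109 CD24+ reads, with only 6 checkable sequences. Gvin1 was thinly read in CD24- cells too, at 0.332 CPM beside 5.53 CPM in CD24+ cells. RMER19B at chr17:35521029-35522745, matching the MHC class I gene H2-Q4, a member of a multigene family whose reads the placing may split, went from 7.33 to 17.8 CPM (1.27, SE 0.16).

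Of the leading loci of named annotations, 6 had at least 90% of their reads matching 1 gene, mainly in its 3′ UTR. Of these 4 were called, H2-Q4 among them, and at the other 3 of the 4 the gene was called in the same direction, beside 29.6% of all repeat loci and 44.3% of all annotations called. RLTR19A and RLTR19C were named as large called increases, which bears on the calls of their loci, so nothing is read from this count. MurERV4-int at chr4:56887241-56890774, in the 3′ UTR of Tmem245, had a log2 fold-change of -0.73 (SE 0.12), and the gene, listed as D730040F13Rik, one of -0.70 (SE 0.09). RLTR19C at chr2:118660501-118661055, in the 3′ UTR of the kinetochore gene Knstrn, had 1.24 (SE 0.18), and the gene, listed as D2Ertd750e, 0.57 (SE 0.08). RLTR19A at chr7:133688780-133690354, in the 3′ UTR of the translation initiation gene Eif3c, had 1.10 (SE 0.27), and the gene 0.65 (SE 0.12). The remaining 2 were not called. RLTR44-int at chr10:60175077-60177779, in the 3′ UTR of the nucleoside transporter gene Slc29a3, had 0.07 (SE 0.16), and the gene, also not called, 0.23 (SE 0.20). RLTR18 at chr1:107354106-107354713, in Gm3608, had -0.24 (SE 0.10), and no value was matched for the gene.

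Of 19 genes tested within 10000 bases of a named locus, 8 were called in the direction of a called locus and 3 in the opposite one, beside 20.8% of all annotations called higher and 23.6% lower. The 8 include Cp, D730040F13Rik, Eif3c, D2Ertd750e and Tnfrsf26, whose own 3′ UTR holds the locus, and Tnfrsf26, Ccdc110 and Gvin1 lie at loci chosen after their values were seen, so nothing is read from this count either. At 5 the locus was called and the gene was not, at 1, Usp32, the gene was called and the locus was not, and at 2 neither was. The opposite ones were Cars, Rb1 and Rcbtb2. Rb1, the retinoblastoma tumor suppressor gene, and Rcbtb2 lie 0.7 and 4 kb from chr14:73587469-73594547, the leading locus of ETnERV2-int, which fell from 26.4 to 8.37 CPM (log2 fold-change -1.61, SE 0.16). Rb1 was higher (log2 fold-change 1.03, SE 0.15), and so was Rcbtb2 (log2 fold-change 0.31, SE 0.11). None of the 158 checkable sequences of this locus was placed with its reverse complement. The genes not called beside a called locus were Prr14, Zfp330, Zfp689, Gbe1 and Ctnnal1, with log2 fold-changes of -0.11 to 0.35, and those where neither was called were Slc29a3 and Hlcs (0.10).

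Of 30 genes listed from general knowledge for retroelement silencing, restriction and the turnover of DNA methylation, 25 were tested, of which 13 were called lower, 2 higher and 10 did not pass, beside 23.6% of all annotations lower and 20.8% higher. Their median log2 fold-change was -0.30, and that of all annotations -0.03. The list holds Tet1, Tet2 and Tet3, which oxidize methylated cytosine and so act against DNA methylation, and Tet2 was among the called (log2 fold-change -0.61, SE 0.12). Without these, 12 of 24 tested genes were lower and 2 higher, with a median of -0.22. When each distinct sequence was counted once, 7 of the 25 tested genes were called. The share of all annotations called under that count is not given, so nothing is read from the lower number. The largest decrease was of Suv39h1, a methyltransferase of histone H3 lysine 9, with 70.6, 66.9 and 73.9 CPM in CD24- and 30.2, 42.2 and 36.9 CPM in CD24+ libraries (log2 fold-change -0.94, SE 0.12, adjusted p = 0.000104). Setdb1, the methyltransferase recruited to ERVK copies by KRAB zinc finger proteins, had a log2 fold-change of -0.51 (SE 0.09), and Dnmt1, which maintains DNA methylation, one of -0.37 (SE 0.10), both called. Trim28, the shared corepressor, had 339.8 and 316 CPM and did not pass. The largest increase was of Apobec3, a cytidine deaminase that restricts retroelements, with 17.3, 17.4 and 14.7 CPM in CD24- and 22.2, 20.1 and 24.8 CPM in CD24+ libraries (log2 fold-change 0.44, SE 0.12, adjusted p = 0.0145). The other increase was of the heterochromatin protein gene Cbx5 (0.32, SE 0.09).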

How the data were processed

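Libraries of 3 CD24- and 3 CD24+ plates, made with a TruSeq RNA kit (which selects poly(A) RNA and keeps no strand), were compared. The authors deposited, per library, distinct 47-nt reads with a count each, after trimming, exact matching to mm9 (per the labels) and assignment of 1 place and 1 annotation to every sequence, so reads with FVB/N variants or across exon junctions are absent. These deposited counts are not normalized. The authors' later coverage and quantile steps were not used here.

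Counts were summed per annotation, per ERVK group and per locus, and scaled to CPM, counts per 1000000 mapped reads (9046025 to 25692147), which limits precision for low counts. Groups were compared with edgeR 4.0.16 in R 4.3.3 (glmQLFit, glmQLFTest, filterByExpr), with Benjamini-Hochberg adjustment over all features of a table and a threshold of 0.05. DESeq2 1.42.0 was an alternative. The tests were tried on simulated data. Replicates of a group differed by more than sampling noise (chi-square per degree of freedom 2.01 to 43.6).

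Named annotations were the 10 most abundant, the internal parts of MMTV, IAP and ETn/MusD, and the 5 largest increases and decreases among called ones of at least 1 CPM whose groups did not overlap. Loci were the 5 most abundant and the 5 largest changes each way; leading loci of named annotations, and those said to be chosen after their values were seen, were added to this rule. Genes within 10000 bases of a named locus were counted by direction, and those beyond it were named after their values were seen. Printed reads left out those in coding or untranslated mRNA parts, a restriction set after the files were seen. Members and lists were chosen with earlier results of these data known. Alternatives changed the scaling, filter, locus gap, replicate block, libraries and reads used.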

Additional observations from a re-analysis of the deposited data

How the results depend on the processing

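The falls of ETn/MusD and the rise of Cd24a stayed called under each alternative run. TMM factors gave 247 loci higher, DESeq2 gave 312 loci lower, and other ERVK names were called lower with DESeq2 (-0.26, adjusted p = 0.0344), without a filter (-0.29, 0.0382) and without CD24+ replicate 2 (-0.34). With each distinct sequence counted once, 24 annotations (16 lower), 7 genes of the silencing and methylation list, 284 loci (80 higher, 204 lower) and 1 of the group totals were called, and MMTV was not (-0.30, adjusted p = 0.0973). Repeated reads of a sequence add nothing to that count, so it narrows differences and nothing is read from its lower numbers. Without leading loci 30 annotations were called (24 lower). With a log2 change of at least 1 they numbered 13 (2 higher, 11 lower), and loci 406 (102 higher, 304 lower). Without reads matching a transcript, other RLTR names were called (-0.61). At an unadjusted p below 0.05 there were 64 annotations and 825 loci. No share over all annotations or all repeat loci is given for any alternative, so these counts show only how the ERVK calls move.

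With each library left out in turn, 30 to 45 annotations (5 to 10 higher, 23 to 35 lower), 564 to 637 loci (119 to 165 higher, 445 to 501 lower), 12 to 15 genes of that list and 2 to 3 group totals were called. The lowest counts came without CD24- replicate 1 (30 annotations, 23 lower) and, for higher ones, without CD24+ replicate 3 (5), while 25 were lower without CD24+ replicate 1. Log2 fold-changes ranged over -0.15 to -0.09 for all ERVK, -0.08 to -0.03 for IAP, -1.90 to -1.58 for ETn/MusD, -0.73 to -0.45 for MMTV, -0.26 to -0.12 for other RLTR, -0.34 to -0.19 for other ERVK and 2.68 to 3.02 for Cd24a. Results that changed sign, none of them called in the main fit, ranged over IAPEY3-int (-0.0399 to 0.31), IAPEz-int from base 24406434 of chromosome 10 (-0.0488 to 0.0136), IAPEz-int from base 84874946 of chromosome 11 (-0.0996 to 0.0450), IAPLTR1a_Mm (-0.0505 to 0.0325), RLTR19-int (-0.0845 to 0.0804), RLTR19-int from base 94463474 of chromosome 16 (-0.0684 to 0.0639), RMER19B (-0.0803 to 0.0433), other RLTR internal (-0.15 to 0.00323).

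The labels give both groups replicate numbers 1 to 3. With the replicate block 38 annotations (8 higher, 30 lower), 621 loci and 14 genes of the silencing and methylation list were called, and ETn/MusD was at -1.74, MMTV at -0.61 and Cd24a at 2.90. Same-numbered libraries did not deviate together (correlations 0.01, -0.29 and -0.30), so no pairing was assumed.

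Some log2 fold-changes had the other sign under an alternative. With TMM factors these were IAPLTR1a_Mm (0.0381), RLTR19-int (0.0302), RMER19B (0.0336), Zfp330 (0.00173), IAPEz-int from base 104928505 of chromosome 1 (0.0383), IAPEz-int from base 24406434 of chromosome 10 (0.15), IAPEz-int from base 84874946 of chromosome 11 (0.13), IAPEz-int from base 150121301 of chromosome 1 (0.0623), IAPEz-int from base 90693782 of chromosome 11 (0.11), RLTR19-int from base 94463474 of chromosome 16 (0.14). With DESeq2 these were IAPLTR1a_Mm (0.0253), RLTR19-int (0.0170), RMER19B (0.0213), IAPEz-int from base 104928505 of chromosome 1 (0.0345), IAPEz-int from base 24406434 of chromosome 10 (0.14), IAPEz-int from base 84874946 of chromosome 11 (0.13), IAPEz-int from base 150121301 of chromosome 1 (0.0586), IAPEz-int from base 90693782 of chromosome 11 (0.10), RLTR19-int from base 94463474 of chromosome 16 (0.14). With distinct sequences counted once these were IAPLTR1_Mm (-0.12), IAPLTR1a_Mm (0.0221), RMER19B (0.0118), Zfp330 (0.0269), IAP LTR (-0.0994), IAPLTR1_Mm from base 70542704 of chromosome 16 (-0.20). Without leading loci these were IAPLTR1a_Mm (0.00932), RLTR13D2 (0.11), RLTR19C (-0.36), RLTR45-int (0.0146), RMER17B (-0.32). With totals without ribosomal RNA reads these were IAPLTR1a_Mm (0.0118), RLTR19-int (0.00575), RMER19B (0.00858), IAPEz-int from base 24406434 of chromosome 10 (0.00925), RLTR19-int from base 94463474 of chromosome 16 (0.00970). Without reads matching a transcript these were IAPLTR1a_Mm (0.34), RLTR18 (0.0307), RLTR19C (-0.34), RMER17B (-0.37), IAPEz-int from base 84874946 of chromosome 11 (0.0132), IAPEz-int from base 90693782 of chromosome 11 (0.19), of which IAPLTR1a_Mm was called (adjusted p = 0.0258). Without the chromosome 1 stretch these were RLTR13D2 (0.11), RLTR45-int (0.0146). Where no value shows it, the cause was not tested. The alternatives that leave out ribosomal RNA reads, reads matching a transcript or the chromosome 1 stretch were chosen after seeing the data. Restriction to reads with 1 genome location was not run, since no mm9 genome was used here.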
